A study of Mus musculus with 6 samples.

Results

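p53 is a stress-activated transcription factor that is held at low protein level by the Mdm2 and Mdm4 proteins and, once released, switches on genes of growth arrest, metabolism, autophagy and DNA repair. The genes described here are Trp53, which encodes p53, 3 of its negative regulators (Mdm2, Mdm4 and Ppm1d) and 6 of its stress response targets (Ccng1, Tigar, Sesn1, Sesn2, Trp53inp1 and Gadd45a). CDK inhibitors and BCL2 family members, which include other well-known p53 targets, do not belong to the set. Every probe set with one of these symbols in the platform annotation was taken, which gave 24 of the 45037 probe sets tested, for 9 of the 10 genes. Trp53 itself was not analysed here.

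RNA was hybridised to 6 single-colour arrays, 3 from PU.1 ki/ki mice and 3 from wild-type (WT) mice, all adult. A free-text note attached to each sample speaks of embryos and was set aside. PU.1 ki/ki mice are knock-in mice in both copies of the PU.1 locus, and the labels do not describe the altered sequence. PU.1, encoded by Spi1, is an ETS transcription factor of blood cell development, and the design sets its knock-in against the corresponding wild type. All 6 samples were hematopoietic stem cells (HSCs) sorted as lin- sca1+ ckit+ CD150+ CD48-, and the labels name no treatment. In adult HSCs p53 is known for limiting cell cycle entry and for removing cells with DNA damage, and Mdm2 and Mdm4 keep that response in check. The labels do not say whether the arrays of a group came from separate animals, so the p-values may reflect technical spread alone.

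Spi1 checks the labels only weakly, since the place of the knock-in relative to its probe set is not given. It read 170, 212 and 161 in PU.1 ki/ki HSCs and 158, 195 and 199 in WT HSCs, and the groups overlapped. WT replicates 2 and 3 stood apart from the other arrays. Of probe sets whose median on the other 5 arrays was at least 512, they read at least 4-fold below that median in 11.5% and 11.3%, WT replicate 1 in 1.12%, against 0.119 to 0.219% for any PU.1 ki/ki array. Results that rest on these 2 arrays are therefore also given against WT replicate 1 alone. Of the gate's genes, Kit read 452 to 1368 in PU.1 ki/ki and 374 to 1622 in WT HSCs, and Slamf1, which encodes CD150, read 170 to 1525 in PU.1 ki/ki HSCs and 42 to 440 in WT HSCs, with 54 and 42 on WT replicates 2 and 3. Cd48, which the gate selects against, read 90 to 290 in PU.1 ki/ki and 75 to 704 in WT HSCs.

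As regulatory sequence, the 250 bases before the transcription start (RefSeq, build GRCm38.p6) were read for the 8 of the 9 genes that matched, in 10 windows. The p53 consensus decamer, a 10-base palindromic pattern that reads alike on both strands and of which p53 response elements hold a pair, lay in 5 of the 10 windows, of Mdm2, Ppm1d, Ccng1, Gadd45a and 1 of 2 of Sesn1. Each of these 5 windows held only 1 match to the decamer, not a pair. Over all 32851 such windows, 7.13% held at least 1 match. The genes were chosen as p53 regulators and targets, so the count describes them and is no test. The windows of Ccng1, Mdm2 and Tigar are shown because a probe set of each separated the PU.1 ki/ki from the WT arrays by more than 1 on the log2 scale. All 3 lie on the minus strand, Ccng1 at chr11:40755287-40755536, Mdm2 at chr10:117710759-117711008 and Tigar at chr6:127109553-127109802, and are written 5′ to 3′ along the gene with the decamer in capitals.
Ccng1: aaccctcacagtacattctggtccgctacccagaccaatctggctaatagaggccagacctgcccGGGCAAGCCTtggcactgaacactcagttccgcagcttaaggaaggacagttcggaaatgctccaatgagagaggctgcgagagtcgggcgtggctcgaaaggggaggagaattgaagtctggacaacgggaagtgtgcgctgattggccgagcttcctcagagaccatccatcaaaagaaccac
Mdm2: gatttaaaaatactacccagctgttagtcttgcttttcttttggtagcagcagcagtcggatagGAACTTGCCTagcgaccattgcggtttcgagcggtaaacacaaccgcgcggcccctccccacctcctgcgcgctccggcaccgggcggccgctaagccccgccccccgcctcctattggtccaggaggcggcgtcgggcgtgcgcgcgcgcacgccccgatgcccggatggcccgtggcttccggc
Tigar: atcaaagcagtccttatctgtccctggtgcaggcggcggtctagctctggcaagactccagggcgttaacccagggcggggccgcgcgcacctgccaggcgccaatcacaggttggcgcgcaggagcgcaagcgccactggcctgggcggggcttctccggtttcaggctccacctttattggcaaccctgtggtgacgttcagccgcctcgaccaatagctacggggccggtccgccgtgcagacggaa
The match was GGGCAAGCCT in Ccng1 and GAACTTGCCT in Mdm2, ending 175 and 176 bases before the start. No match lay in the Tigar window, which says only that the pattern is not in these 250 bases.

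Values below are array intensities, and differences are PU.1 ki/ki minus WT on the scale log2(intensity + 1), each with its standard error (SE) from a linear model fitted to all 45037 probe sets with limma. A probe set passed when its p, adjusted by Benjamini-Hochberg over all of them, was under 0.05. No probe set of the 9 genes passed, and 0 of all probe sets did (0%). At an unadjusted p under 0.05 were 2 of the 24, 1 of Ccng1 and 1 of Tigar, which is 8.33% against 8.28% of all probe sets. The lowest adjusted p among the 24 was 0.458, for Tigar, against a lowest of 0.400 over the table. In 4 of 24 probe sets (16.7%) all 3 values of a group lay on one side of the other group's, against 12.1% of all probe sets. After quantile normalization and after median centring the share of members was below that of all probe sets, at 8.33% against 12.6% and 12.5% against 19.5%. Centring puts a probe set at the table's minimum of 10 on all 6 arrays on the lower side without overlap, which raises the 19.5%. No member was at that minimum on any array, so the centred shares compare unlike sets. Ccng1, Mdm2 and Sesn1 had 1 each on the higher side (3 of 24, 6.62% of all probe sets) and Tigar had 1 on the lower side (1 of 24, 5.46% of all). Single values cannot pass an exact permutation test here, because the smallest two-sided p that 3 arrays against 3 allow is 0.1.

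**Figure D1:**
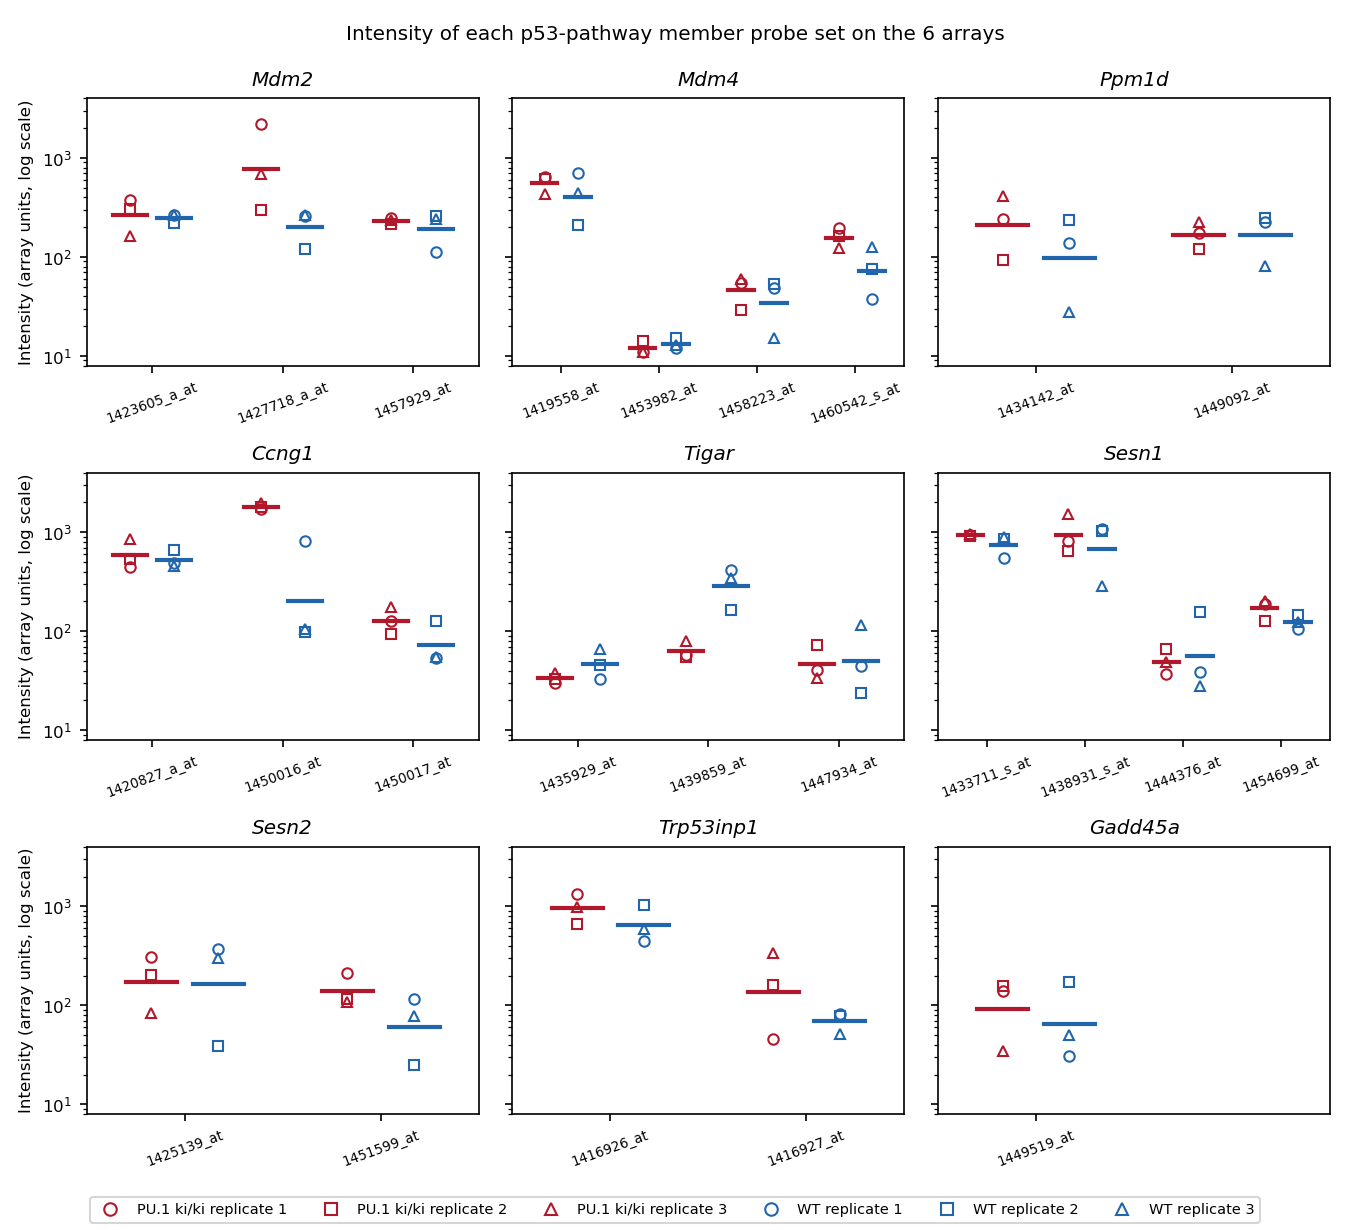
Intensity on a log axis of each of the 24 probe sets of the 9 genes, 1 panel per gene, with the 3 PU.1 ki/ki arrays in red to the left of the 3 WT arrays in blue and a bar at the mean of the log2 values. Ccng1 1450016_at lies at 1701 to 1954 in PU.1 ki/ki and 97 to 809 in WT HSCs, and Tigar 1439859_at at 55 to 80 in PU.1 ki/ki and 164 to 416 in WT HSCs.

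Most of the probe sets read higher in PU.1 ki/ki HSCs, and none of the differences passed. Of the 24, 19 (79.2%) read higher and 5 lower, and their median difference was 0.43. Over all probe sets 50.1% read higher, with a median of 0.0021. Upper quartiles of intensity were 186, 188 and 187 in PU.1 ki/ki HSCs, against 180, 154 and 150 in WT HSCs. Median intensities were 45, 46 and 46 in PU.1 ki/ki HSCs, against 43, 43 and 41 in WT HSCs. The arrays thus did not share the same distribution of values. After quantile normalization or after centring each array on its median, 16 of 24 (66.7%) read higher, against 43.9% and 42.4% of all probe sets. Among the probe sets whose mean level was at or above the table's median, which hold 21 of the 24, the median differences were 0.45 for the members and 0.16 for all. In that brighter part 85.7% of the members and 59.6% of all probe sets read higher. Against WT replicate 1 alone 17 of 24 (70.8%) read higher, against 49.0% of all, and the member median was 0.31. By gene, the log2 differences were above 0 on all probe sets of Mdm2, Ppm1d, Ccng1, Sesn2, Trp53inp1 and Gadd45a, below 0 on all 3 of Tigar, and split for Mdm4 and Sesn1. On Mdm2 1423605_a_at, Ppm1d 1449092_at and Sesn2 1425139_at they were 0.10, 0.02 and 0.08 and turned below 0 after quantile normalization and after median centring. The mean intensity of Ppm1d 1449092_at was 173 in PU.1 ki/ki and 185 in WT HSCs, and that of Sesn2 1425139_at 198 in PU.1 ki/ki and 237 in WT HSCs, so for both it had the opposite sign to the log2 difference. The median level of the 24, relative to each probe set's mean over the arrays, was 0.38, 0.07 and 0.22 on PU.1 ki/ki replicates 1, 2 and 3 and -0.15, 0.23 and -0.26 on WT replicates 1, 2 and 3. WT replicate 2 thus lay among the PU.1 ki/ki arrays. Fewer cells of a type and less RNA per cell cannot be told apart in such bulk samples.

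Some marker sums of other cell types also lay apart between the groups. The summed intensity of 4 megakaryocyte markers was 1631 to 3559 in PU.1 ki/ki HSCs and 1118 to 1549 in WT HSCs, without overlap. Of these only Vwf separated, at 815 to 1435 in PU.1 ki/ki and 298 to 617 in WT HSCs, while Pf4, Itga2b and Gp1bb overlapped. The summed intensity of 3 of 5 erythroid markers was 234 to 243 in PU.1 ki/ki and 122 to 225 in WT HSCs, and its members went opposite ways. Klf1 read 118 to 159 in PU.1 ki/ki and 11 to 42 in WT HSCs, Hba-a1 36 to 47 in PU.1 ki/ki and 48 to 85 in WT HSCs, and Epor 43 to 80 in PU.1 ki/ki and 16 to 166 in WT HSCs. The sum of 3 mast cell and basophil markers was 56 to 100 in PU.1 ki/ki and 130 to 234 in WT HSCs. Mcpt8, a basophil gene, alone among them separated, at 22 to 29 in PU.1 ki/ki and 38 to 176 in WT HSCs. Cpa3 and Fcer1a overlapped. The sums overlapped for 6 of 7 granulocyte and macrophage markers (8779 to 10994 in PU.1 ki/ki, 9720 to 15056 in WT), for 4 of 5 B cell markers (283 to 325 in PU.1 ki/ki, 176 to 753 in WT) and for 5 T and NK cell markers (318 to 427 in PU.1 ki/ki, 417 to 697 in WT). Cd3e read 32 to 58 in PU.1 ki/ki and 76 to 150 in WT HSCs, without overlap. Cd79a read 21 to 27 in PU.1 ki/ki and 28 to 42 in WT HSCs, also without overlap. The other B, T and NK cell markers overlapped. None of the markers in these sums was at the table's minimum of 10 on all 6 arrays. C1qb was at it on all 3 WT arrays, with 73 to 567 in PU.1 ki/ki HSCs. The part of these markers in the results below was not tested.

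**Figure D2:**
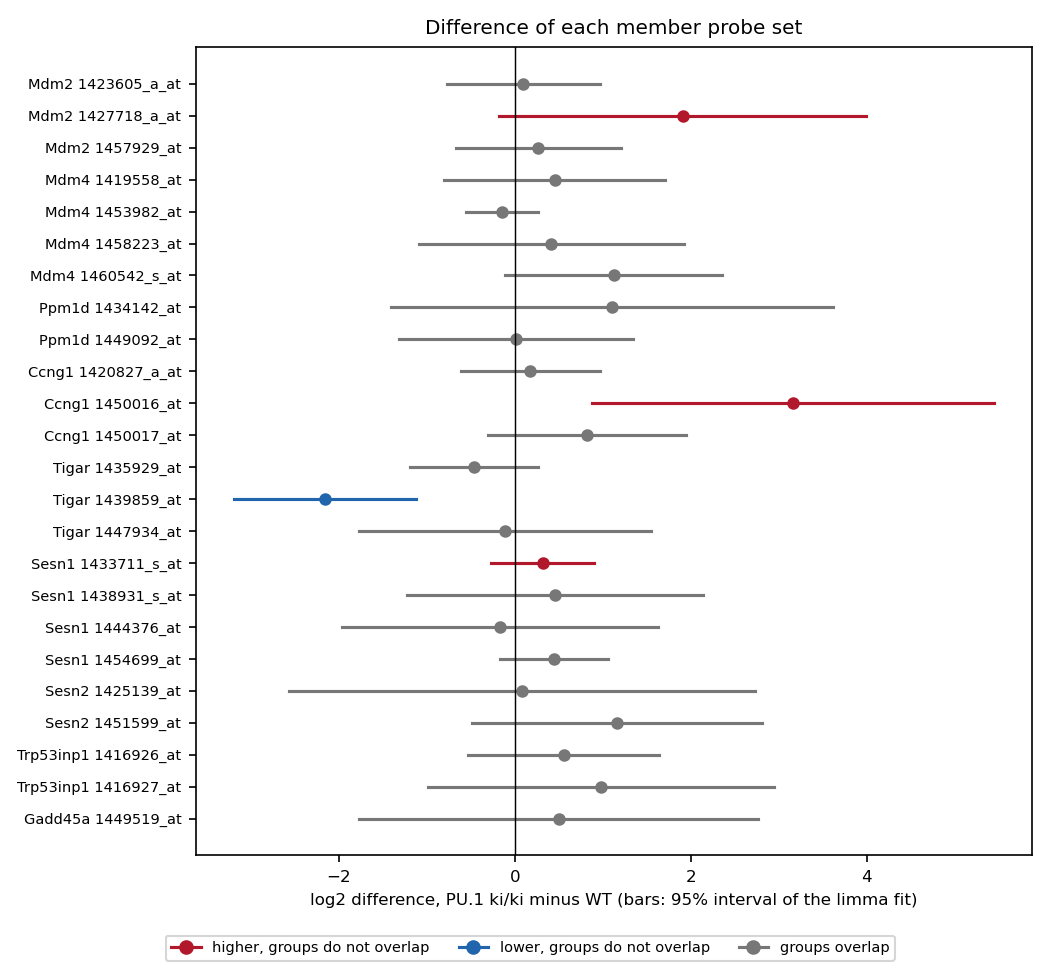
Difference of each of the 24 probe sets on the log2 scale, PU.1 ki/ki minus WT, with the 95% interval of the limma fit as a bar. Intervals of Ccng1 1450016_at (0.88 to 5.45) and Tigar 1439859_at (-3.19 to -1.12) leave out 0, before any adjustment for the 45037 probe sets.

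Of the regulators, Mdm2, the ubiquitin ligase that marks p53 for degradation and is itself induced by p53, read higher on all 3 of its probe sets. On 1427718_a_at it read 2187, 299 and 682 in PU.1 ki/ki HSCs and 262, 120 and 264 in WT HSCs, a difference of 1.91 ± 0.82 (SE, limma adjusted p = 0.617). The groups did not overlap, but the lowest PU.1 ki/ki value, 299, lay just above the highest WT value, and PU.1 ki/ki replicate 1 stood far above the others. Without that array the difference was 1.15. The other probe sets of Mdm2 overlapped between groups. On 1423605_a_at the values were 373, 303 and 164 in PU.1 ki/ki HSCs and 264, 218 and 263 in WT HSCs, a difference of 0.10 ± 0.34. On 1457929_at they were 245, 214 and 236 in PU.1 ki/ki HSCs and 111, 261 and 244 in WT HSCs, a difference of 0.27 ± 0.37. PU.1 ki/ki replicate 1 was the highest array on 1423605_a_at too, by a smaller margin, and WT replicate 2 was the highest on 1457929_at.

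Mdm4, a relative of Mdm2 that binds p53 and blocks its activity, did not separate on any of 4 probe sets. On the brightest, 1419558_at, it read 635, 618 and 433 in PU.1 ki/ki HSCs and 705, 209 and 447 in WT HSCs, a difference of 0.45 ± 0.49 (limma adjusted p = 0.800). The highest and the lowest of the 6 values were both WT, and against WT replicate 1 alone the difference was -0.35. 1460542_s_at, whose suffix marks probes that match more than 1 transcript, read 195, 161 and 123 in PU.1 ki/ki HSCs and 38, 75 and 127 in WT HSCs (1.13 ± 0.48). These overlapped by a single pair of values, and the difference was 0.68 without WT replicate 1 and 2.02 against WT replicate 1 alone. 1453982_at stayed close to the minimum, at 11 to 14 in PU.1 ki/ki and 12 to 15 in WT HSCs, and 1458223_at read 29 to 60 in PU.1 ki/ki and 15 to 53 in WT HSCs.

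Ppm1d encodes Wip1, the phosphatase that switches the p53 response off and is itself a p53 target. Its brightest probe set, 1449092_at, read 175, 120 and 223 in PU.1 ki/ki HSCs and 227, 246 and 81 in WT HSCs, a difference of 0.02 ± 0.52 with a 95% interval of -1.31 to 1.34. The other, 1434142_at, read 244, 93 and 410 in PU.1 ki/ki HSCs and 138, 234 and 28 in WT HSCs (1.11 ± 0.98). The groups overlapped on both, and WT replicate 3 was the lowest array on both. Without WT replicate 3 the difference of 1434142_at was 0.23 and that of 1449092_at -0.50. Against WT replicate 1 alone these differences were 0.61 and -0.44. The intervals are wide enough to hold a doubling in either direction.

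Of the targets, Ccng1, encoding cyclin G1, a p53-induced protein that acts on Mdm2 through protein phosphatase 2A, had the largest difference of the 24 probe sets. On 1450016_at it read 1701, 1797 and 1954 in PU.1 ki/ki HSCs and 809, 97 and 104 in WT HSCs, a difference of 3.16 ± 0.89 (limma adjusted p = 0.519). The PU.1 ki/ki arrays were close together and all above the WT arrays, of which replicates 2 and 3 were far below replicate 1. By the measure used above, 5 and 6 of the 24 probe sets were bright enough to be counted on WT replicates 2 and 3, and on each of these arrays this probe set was the only one at least 4-fold below the other arrays. Against WT replicate 1 alone the difference was 1.16, and without WT replicate 1 it was 4.16. On the other probe sets of Ccng1 the groups overlapped. 1420827_a_at read 447, 540 and 861 in PU.1 ki/ki HSCs and 483, 658 and 452 in WT HSCs (0.18 ± 0.31). 1450017_at read 126, 94 and 175 in PU.1 ki/ki HSCs and 53, 127 and 55 in WT HSCs (0.82 ± 0.44). On neither were WT replicates 2 and 3 both low relative to replicate 1. The annotation pairs all 3 probe sets with one and the same GenBank sequence, and they gave differences of 0.18, 3.16 and 0.82.

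Tigar, a fructose-2,6-bisphosphatase that lowers glycolysis and oxidative stress, was the member that read lower in PU.1 ki/ki HSCs on every probe set. On 1439859_at it read 58, 55 and 80 in PU.1 ki/ki HSCs and 416, 164 and 345 in WT HSCs, a difference of -2.16 ± 0.40 (limma adjusted p = 0.458). The lowest WT value was above the highest PU.1 ki/ki value by a wide margin. Leaving out any single array gave -2.56 to -1.89, and the difference was -2.69 against WT replicate 1 alone, so it was as large without WT replicates 2 and 3. The other probe sets differed less and overlapped. 1435929_at read 30, 33 and 38 in PU.1 ki/ki HSCs and 33, 46 and 66 in WT HSCs (-0.46 ± 0.28). 1447934_at read 41, 72 and 34 in PU.1 ki/ki HSCs and 45, 24 and 116 in WT HSCs (-0.11 ± 0.65). Against WT replicate 1 alone these 2 were at 0.02 and 0.05.

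**Figure D3:**
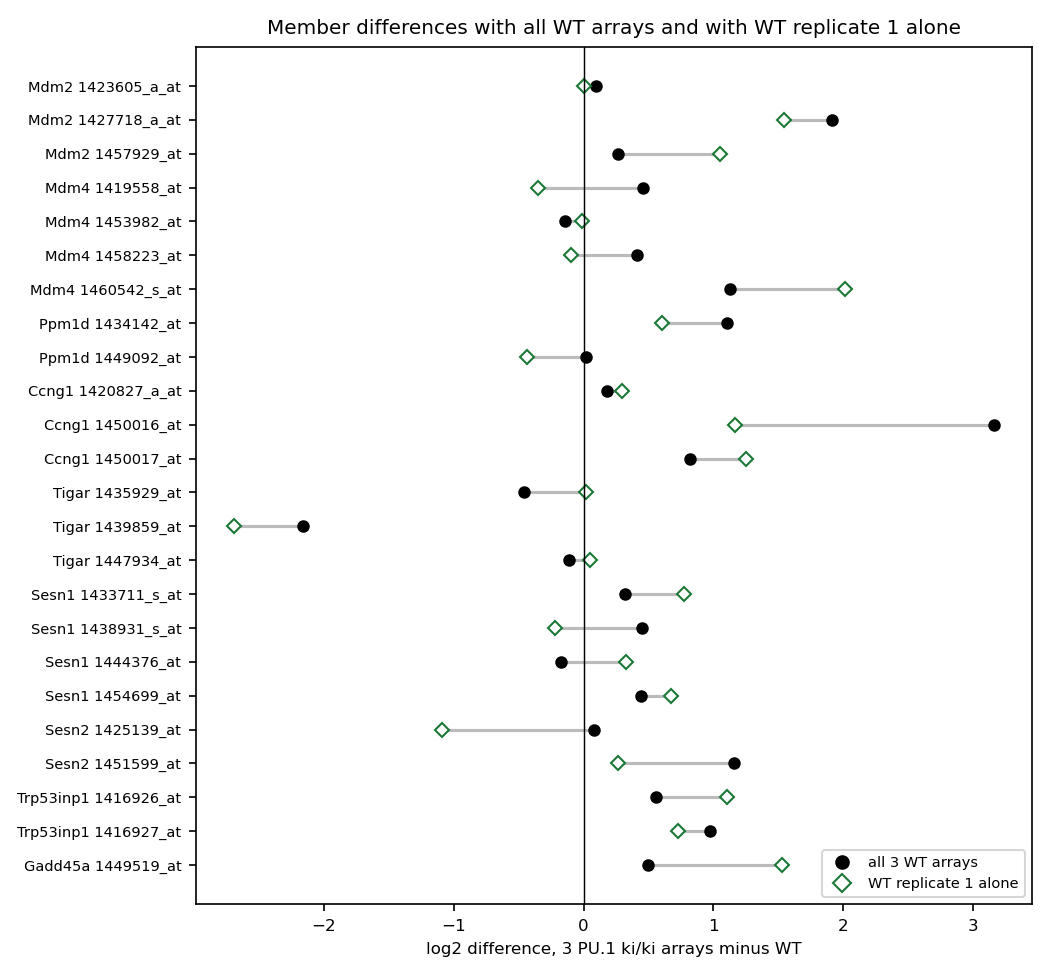
Difference on the log2 scale of each of the 24 probe sets with all 3 WT arrays (black circles) and with WT replicate 1 alone (green diamonds). Ccng1 1450016_at moves to 1.16 with WT replicate 1 alone, against 3.16 with all WT arrays, Tigar 1439859_at lies at -2.69 and -2.16, and 8 of 24 probe sets change sign.

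The sestrins are stress-induced proteins that restrain mTORC1 and oxidative damage. Sesn1 was measured by 4 probe sets. On 1433711_s_at it read 938, 911 and 952 in PU.1 ki/ki HSCs and 545, 860 and 897 in WT HSCs, a difference of 0.32 ± 0.23 (limma adjusted p = 0.722). The groups did not overlap, but the gap was narrow, and without WT replicate 1 the difference was 0.09. 1454699_at, paired with the same GenBank sequence, read 189, 128 and 202 in PU.1 ki/ki HSCs and 106, 146 and 124 in WT HSCs (0.45 ± 0.24, overlapping). 1438931_s_at read 649 to 1535 in PU.1 ki/ki and 284 to 1088 in WT HSCs (0.45 ± 0.66), and the dimmer 1444376_at 37 to 66 in PU.1 ki/ki and 28 to 156 in WT HSCs (-0.17 ± 0.70). Sesn2 overlapped on both of its probe sets. 1425139_at read 305, 204 and 84 in PU.1 ki/ki HSCs and 371, 39 and 302 in WT HSCs (0.08 ± 1.04), and 1451599_at 211, 116 and 108 in PU.1 ki/ki HSCs and 115, 25 and 79 in WT HSCs (1.16 ± 0.64). WT replicate 2 was the lowest array on both. Without it the differences were -0.94 and 0.53, and against WT replicate 1 alone -1.09 and 0.26.

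Trp53inp1, a p53-induced protein that promotes p53 activity and autophagy, read 1348, 663 and 996 in PU.1 ki/ki HSCs and 447, 1044 and 598 in WT HSCs on 1416926_at, a difference of 0.56 ± 0.43 (limma adjusted p = 0.737). On 1416927_at it read 46, 162 and 338 in PU.1 ki/ki HSCs and 82, 78 and 51 in WT HSCs (0.98 ± 0.77). Single arrays moved both, the first to 0.28 without WT replicate 1, and the other to 0.33 without PU.1 ki/ki replicate 3 and 1.75 without PU.1 ki/ki replicate 1. PU.1 ki/ki replicate 1 was the highest array on one and the lowest on the other, although both probe sets are paired with one GenBank sequence. Gadd45a, a growth arrest and DNA damage sensor protein with 1 probe set, read 139, 156 and 35 in PU.1 ki/ki HSCs and 31, 171 and 50 in WT HSCs, a difference of 0.50 ± 0.89 (limma adjusted p = 0.889). Each group held both low and high arrays for Gadd45a, and the interval of its difference, -1.77 to 2.77, was wide.

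Probe sets of the same gene followed each other loosely across the 6 arrays. Over the 24 pairs of probe sets within a gene, Pearson's r of the log2 values ranged from -0.58 to 0.88 with a median of 0.16, and 7 pairs were below 0. The 6 pairs that share a GenBank sequence ranged from 0.01 (Trp53inp1) to 0.76 (Sesn2). The closest pair was the 2 probe sets of Ppm1d. These are descriptions over 6 arrays that all the pairs share. The median SE of a difference was 0.50 for the 24 probe sets and 0.39 for all probe sets.

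Other genes of the pathway were described from 5 lists with 1 probe set per gene, the brightest. Of 89 genes listed 81 were measured, 43 higher, 37 lower and 1, Pmaip1, at the minimum of 10 on all 6 arrays. No gene passed, 6 had an unadjusted p under 0.05 (8.61% of named genes did), and in 11 (13.6%) the groups did not overlap, against 12.7% of 18193 named genes.

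Among 24 measured upstream regulators of p53 (kinases, cofactors and ubiquitin enzymes), 15 read higher and 9 lower (median difference 0.13, all named genes 0.0056), a split of 12 and 12 after quantile normalization and 13 and 11 after median centring or against WT replicate 1 alone. Trp53bp1, encoding 53BP1, a DNA break adaptor that also binds p53, read 3727, 3785 and 5074 in PU.1 ki/ki HSCs and 2750, 1154 and 3610 in WT HSCs on its brightest probe set, a difference of 0.88 ± 0.47 (limma adjusted p = 0.661). The gap was narrow, with the lowest PU.1 ki/ki value just above WT replicate 3. All 6 probe sets of Trp53bp1 read higher, by 0.86 to 1.97, and 3 of them had no overlap. Of these, 1446100_at read 200, 136 and 96 in PU.1 ki/ki HSCs and 33, 41 and 30 in WT HSCs (1.97 ± 0.31, limma adjusted p = 0.431). Lower without overlap were Trp63, a p53 family member that was dim in both groups (25, 28 and 22 in PU.1 ki/ki, 41, 30 and 47 in WT), and Ppp1r13b, a p53 cofactor (-0.20 ± 0.15). The other probe sets of Trp63 did not separate, with 1418158_at at -0.56, 1452027_a_at at 0.22 and 1459581_at at the minimum on all arrays.

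Of 11 measured paralogs of the members 6 read higher and 5 lower (median 0.08), and 5 and 6 after either of these scalings. Pfkfb2, one of the bifunctional enzymes that make and break the fructose-2,6-bisphosphate on which Tigar acts, read 149, 312 and 232 in PU.1 ki/ki HSCs and 62, 39 and 31 in WT HSCs, a difference of 2.36 ± 0.39 (limma adjusted p = 0.431). The groups lay well apart on this probe set. Of its 3 other probe sets, 1422092_at also had no overlap (1.73 ± 0.38), and the other two read lower with overlap (-0.48 and -0.09). Trp53inp2, a paralog of Trp53inp1 that acts in autophagy, read 26, 33 and 37 in PU.1 ki/ki HSCs and 98, 50 and 39 in WT HSCs (-0.84 ± 0.38). The gap was narrow, and the dimmer other probe set of Trp53inp2 differed by -0.13 with overlap.

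The 16 measured targets of growth arrest and signalling read higher in 4 and lower in 12 (median -0.15), the same split after either scaling. In none did the groups separate, against 12.7% of named genes. After quantile normalization 2 of 16 separated (12.6% of all probe sets), and after median centring 1 of 16 (19.5% of all probe sets). Against WT replicate 1 alone 7 read higher and 9 lower. Cdkn1a, which encodes the CDK inhibitor p21, read 160, 84 and 73 in PU.1 ki/ki HSCs and 196, 261 and 134 in WT HSCs, a difference of -0.93 ± 0.41 (limma adjusted p = 0.623). Its other probe set read 12, 41 and 28 in PU.1 ki/ki HSCs and 46, 32 and 121 in WT HSCs (-1.19 ± 0.68). Both had the sign of Tigar and overlapped between groups.

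Of 15 measured targets of cell death and autophagy 7 read higher and 7 lower (median 0), and 5 did not overlap (33.3%, 12.7% of all named genes). Against WT replicate 1 alone 4 of these targets read higher and 10 lower, with a median of -0.31. Ulk1, the kinase that starts autophagy, read 633, 606 and 685 in PU.1 ki/ki HSCs and 420, 422 and 337 in WT HSCs (0.71 ± 0.15, limma adjusted p = 0.463), while its other probe set differed by -0.66 with overlap. Tnfrsf10b, a death receptor, read 87, 84 and 97 in PU.1 ki/ki HSCs and 64, 38 and 61 in WT HSCs (0.74 ± 0.24). Lower without overlap were Ulk2, a paralog of Ulk1 (-0.88 ± 0.38), Ei24, an autophagy protein of the endoplasmic reticulum (-0.77 ± 0.34), and Pidd1, a death domain protein (-0.56 ± 0.25). The 3 other probe sets of Ulk2 read higher. Those that separated therefore lay in both directions. Of 15 measured targets of repair and metabolism 11 read higher and 4 lower (median 0.33), a split of 8 and 7 after quantile normalization, 10 and 5 after median centring and 9 and 6 against WT replicate 1 alone. Gpx1, a glutathione peroxidase, read 4919, 4796 and 5082 in PU.1 ki/ki HSCs and 2956, 1398 and 3645 in WT HSCs (1.00 ± 0.39, limma adjusted p = 0.602), and was the only one without overlap.

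**Figure D4:**
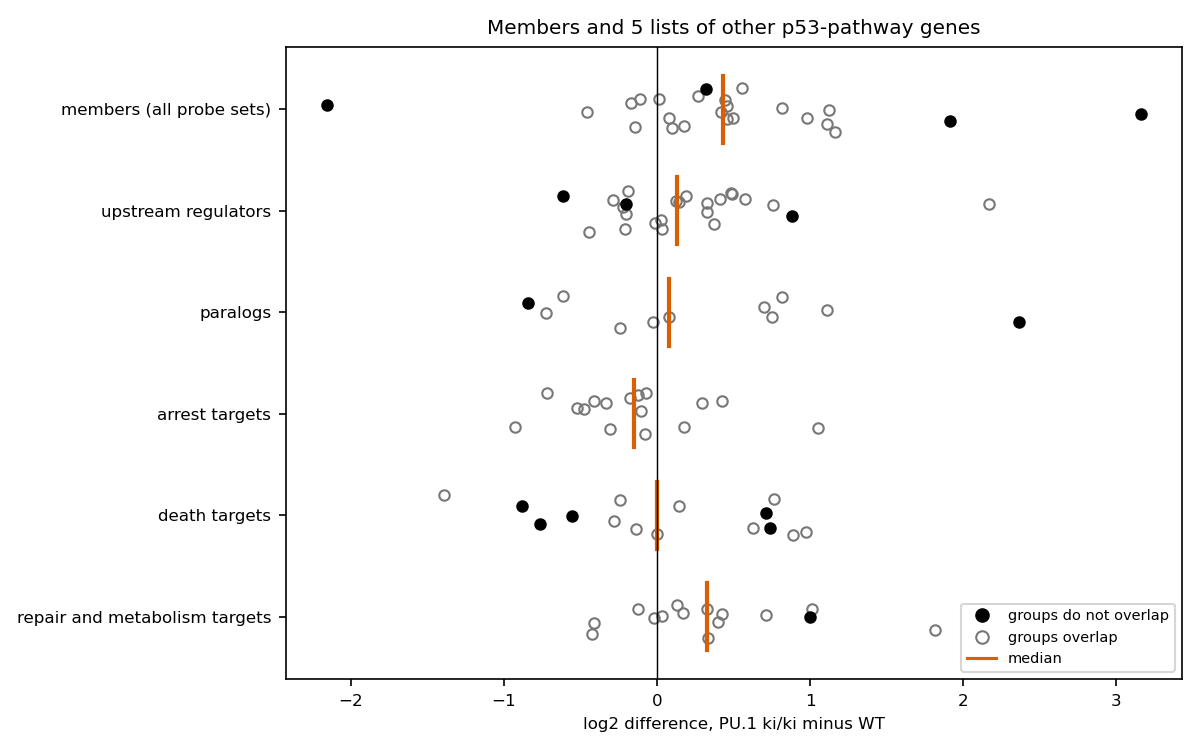
Differences on the log2 scale, PU.1 ki/ki minus WT, of the 24 member probe sets (top) and of the genes of 5 pathway lists, 1 probe set per gene, with filled points where the groups do not overlap and an orange bar at the median. Medians were 0.43 for the members and -0.15 to 0.33 for the lists.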

How the data were processed

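The values were the array intensities of the deposited series table, the output of RMA as run by the authors, per the submitters' processing notes (version not stated there). The table holds whole numbers on a linear scale with a minimum of 10, and any conversion from the log2 scale is not given. Of its rows 64 control probe sets were left out, and no column was unused. Groups and replicate numbers came from the sample titles. A free-text note on embryos attached to each sample was set aside. The platform annotation gave 1 symbol to 34945 probe sets, several to 932 and left 9160 unlisted. Differences were fitted on log2(intensity + 1) with lmFit and eBayes of limma 3.58.1 in R 4.3.3 and genotype as the only term, which understates differences of dim probe sets. The fit was tested on simulated data with the same noise on every array. The arrays here differed in noise, so that test does not show what the fit could detect in these data. Figures were drawn with matplotlib 3.10.9. Every probe set of every member is described. Of each list, up to 3 genes per direction without overlap and Cdkn1a are named. The members and lists were chosen with earlier results of these data known. Alternatives were quantile normalization, median centring, a pseudocount of 16, leaving out dim probe sets, a trended robust prior, array weights, a block for the replicate number, each array left out, and WT replicate 1 alone. The number of arrays limits the precision.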

Additional observations from a re-analysis of the deposited data

How the results depend on the processing

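Under all 14 alternatives 0 of the 24 member probe sets, 0 of the genes of the 5 lists and 0 of all probe sets passed with limma. An unadjusted p under 0.05 was seen for 2 to 5 members, 5 (20.8%, 12.4% of all probe sets) against WT replicate 1 alone and 4 (16.7%, 5.63% of all) without PU.1 ki/ki replicate 2. No member was at the minimum of 10 on any array. Median centring puts a probe set at that minimum on all 6 arrays on the lower side without overlap, which raises the share of all probe sets. The number of members without overlap was 2 (8.33%) after quantile normalization and 3 (12.5%) after median centring, below the 12.6% and 19.5% of all probe sets, whereas the 4 reported (16.7%) lay above the 12.1% of all. It was 13 (54.2%) against WT replicate 1 alone, where 51.5% of all probe sets do not overlap because fewer arrays are compared, and 5 to 8 when single arrays were left out (18.2 to 30.3% of all), with 8 without PU.1 ki/ki replicate 2 and 7 without PU.1 ki/ki replicate 3 or WT replicate 2. The median difference of the members moved by less than the spread between arrays under every alternative, with 0.26 as the lowest (quantile normalization) and 0.55 as the highest (without WT replicate 2).

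Differences of up to 0.50 in reported size turned sign. After quantile normalization and median centring, Mdm2 1423605_a_at was at -0.088 and -0.0098, Ppm1d 1449092_at at -0.18 and -0.092, and Sesn2 1425139_at at -0.064 and -0.027. With array weights Ppm1d 1449092_at was at -0.092 and Sesn2 1425139_at at -0.019. Against WT replicate 1 alone the turned values were -0.35 (Mdm4 1419558_at), -0.096 (Mdm4 1458223_at), -0.44 (Ppm1d 1449092_at), 0.022 (Tigar 1435929_at), 0.047 (Tigar 1447934_at), -0.22 (Sesn1 1438931_s_at), 0.33 (Sesn1 1444376_at) and -1.09 (Sesn2 1425139_at). When single arrays were left out, differences crossed 0 for Mdm2 1423605_a_at (-0.15 to 0.44) and 1457929_at (-0.13 to 0.49), Mdm4 1419558_at (-0.019 to 0.86) and 1458223_at (-0.15 to 0.74), Ppm1d 1449092_at (-0.50 to 0.30), Ccng1 1420827_a_at (-0.092 to 0.38), Tigar 1447934_at (-0.63 to 0.49), Sesn1 1438931_s_at (-0.18 to 0.79) and 1444376_at (-0.66 to 0.56), Sesn2 1425139_at (-0.94 to 0.67) and Gadd45a (-0.018 to 1.20). The other 13 kept their sign. The cause was not tested.

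Whether the replicate numbers pair the arrays is not settled by the sample titles. Deviations from the group means correlated at -0.02 to 0.02 between same-numbered arrays, and not every array correlated best with its own number. These correlations showed no pairing but cannot exclude one, since they were taken over all probe sets, dim ones included. With the replicate number as a block, 0 members passed, 3 had an unadjusted p under 0.05 (12.5%, 7.48% of all probe sets), and the lowest adjusted p was 0.664. Leaving out dim probe sets removed 3 of the 24, so these have no value there.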
